A study of Mus musculus with 21 samples.

Results

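The DUSP, Sprouty and Spred genes encode feedback inhibitors of MAP kinase signaling, and 10 of them were followed here: Dusp1, Dusp2, Dusp4, Dusp5, Dusp6, Dusp10, Spry1, Spry2, Spred1 and Spred2. They were matched by symbol, and all 10 were among the 15300 genes with at least 10 counts over all libraries, out of 47643 genes in the count table. MAP kinases (ERK, JNK and p38) carry signals from the T cell receptor (TCR) to the nucleus, ERK by way of Ras and Raf and JNK and p38 by cascades of their own, and are active while phosphorylated on a threonine and a tyrosine. Dual-specificity phosphatases (DUSPs) remove both phosphates, and several of their genes are themselves induced by MAP kinase signaling, which closes a negative feedback loop. Sprouty and Spred proteins act upstream and restrain the step from Ras to Raf and ERK.

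All cells were splenic CD4+ T cells from mice of the strain Tg4 Tiger Nr4a3-Tocky, which carry the Tg4 transgenic TCR for a myelin basic protein (MBP) peptide, an Il10-GFP reporter (Tiger) and the Nr4a3-Tocky reporter. The Tocky reporter makes a Timer protein from the promoter of Nr4a3, a gene switched on by TCR signaling, which is blue when new and red once mature. Mice received 0.8 μg or 80 μg of the [4Y] MBP peptide subcutaneously without adjuvant, and spleens were taken 4 h, 12 h or 24 h later. Controls were untreated, and their sorting gate was not given in the sources used here. The 7 groups held 3 mice each, and their ages and the sexes in each group were not given in the sources used here. The study's methods state that males and females were used and that same-sex littermates were assigned to groups at random. Per the methods, the 4 h cells were sorted as blue without red (Blue+Red-), those of 12 h as positive for both colors (Blue+Red+) and those of 24 h as red alone (Blue-Red+). Time and sorting gate therefore cannot be told apart. Against control, exposure to antigen and selection of reporter-positive cells cannot be told apart either. Every group shared the transgenic receptor and both reporters, and the immunized groups held only the responding cells of each mouse.

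Library totals from 3′ mRNA sequencing ranged from 2352800 to 6244279 counts, so that 3 counts, used here as the floor, were 0.48 to 1.28 CPM (counts scaled to the library total). The CD4 T cell list (Cd3e, Cd3g, Cd4, Trac, Lck and Cd5) was detected in every library, at a summed 2112 to 2210 CPM in controls and 900.3 to 1508 CPM at 4 h and 12 h. The 6 B cell markers summed to 40.4 to 96.6 CPM in controls against 2.32 to 49.7 CPM in the immunized groups, and the 7 myeloid markers to 0.46 to 31.2 CPM over all libraries, with Cd14 at 0 in 20 of 21. The 5 dendritic cell and 3 NK cell markers summed to at most 2.96 and 4.49 CPM, the 3 erythroid markers to 3.23 to 157 CPM, and the 2 CD8 markers to 13.1 to 51.3 CPM. Mitochondrial genes took 4.998% to 6.48% of the counts at 4 h and 12 h, 7.265% to 7.516% in controls and 8.22% to 9.44% at 24 h. The part of other cells and of these shares in the results below was not tested. In these bulk samples, fewer cells of a type and less RNA per cell cannot be told apart. The third 0.8 μg 12 h library stood apart from the others of its group: a chi-square comparison of counts gave 14.8 and 14.4 per gene against the other two, which differed from each other by 3.35, and 3.47 to 9.49 in the other groups. Gm42418, a gene that overlaps ribosomal RNA sequence, took 25.7% of its counts against 16.97% and 18.2% in the other 2. This share was 23.98% to 24.67% in controls and 23.31% to 27.83% at 24 h. The second 80 μg 12 h library differed from its group by 8.70 and 9.49, against 4.87 between the other 2. The tested values of the members described below that use the third 0.8 μg 12 h library are also given without it.

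The promoters of Dusp1, Dusp2 and Dusp5, phosphatase genes that peaked at 4 h, and of Spry1, the one member called between doses, are shown so that they can be compared for the sites of TCR-induced factors. These genes did not all move together, since Dusp1 fell below control at 12 h. The windows run from 250 bases before to 50 bases after the RefSeq start (GRCm38.p6), and 9 of 10 members matched; Dusp4 is named only. Capitals mark matches, on either strand, to the CRE TGACGTCA and its core TGACG, the AP-1 site TGANTCA, the CArG box, the ETS site CCGGAAG, the EGR sites GCGTGGGCG and GCGGGGGCG, and the NFAT core TGGAAA.
Dusp1, chr17:26508423-26508722, minus strand: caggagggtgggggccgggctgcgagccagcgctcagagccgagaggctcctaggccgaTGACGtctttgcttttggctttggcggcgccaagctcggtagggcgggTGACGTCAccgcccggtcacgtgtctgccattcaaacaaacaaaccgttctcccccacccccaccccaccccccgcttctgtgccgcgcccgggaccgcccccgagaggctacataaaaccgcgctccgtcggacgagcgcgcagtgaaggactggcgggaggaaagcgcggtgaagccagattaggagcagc
Dusp2, chr2:127335909-127336208, plus strand: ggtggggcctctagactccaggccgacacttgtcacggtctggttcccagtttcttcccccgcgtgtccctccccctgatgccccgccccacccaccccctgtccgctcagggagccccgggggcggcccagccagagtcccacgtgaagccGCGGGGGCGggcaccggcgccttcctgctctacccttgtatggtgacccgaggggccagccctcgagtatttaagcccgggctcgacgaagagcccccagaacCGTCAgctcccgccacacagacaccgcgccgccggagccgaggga
Dusp5, chr19:53528895-53529194, plus strand: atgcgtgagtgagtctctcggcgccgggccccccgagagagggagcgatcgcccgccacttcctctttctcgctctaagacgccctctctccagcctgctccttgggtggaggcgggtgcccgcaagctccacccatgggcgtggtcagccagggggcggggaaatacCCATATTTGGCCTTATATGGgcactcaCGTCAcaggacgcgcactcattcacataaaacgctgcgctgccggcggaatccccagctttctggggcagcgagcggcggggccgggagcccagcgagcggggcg
Spry1, chr3:37639697-37639996, plus strand: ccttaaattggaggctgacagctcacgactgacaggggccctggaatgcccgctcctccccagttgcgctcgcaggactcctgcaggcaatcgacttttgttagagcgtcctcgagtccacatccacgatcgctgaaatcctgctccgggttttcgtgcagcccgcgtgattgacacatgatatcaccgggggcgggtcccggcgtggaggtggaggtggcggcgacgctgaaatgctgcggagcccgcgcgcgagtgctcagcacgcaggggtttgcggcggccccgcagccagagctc
The Dusp1 window held a full CRE starting 143 bases before the start, a motif in 1.79% of all 32851 windows of this length, and a further CRE core 191 bases before it. The Dusp5 window held a pair of adjoining CArG boxes 82 and 72 bases before the start, a motif in 1.63% of windows, and a CRE core at 55 bases. The Dusp2 window held the second EGR site 98 bases before the start (2.91% of windows) and a CRE core just past the start. The CRE core, which every full CRE contains, was in 4 of the 9 member windows (Dusp1, Dusp2, Dusp5 and Spred2) and in 20.8% of all windows. No member window held the AP-1 site (7.81% of windows), the ETS site (8.86%), the first EGR site (0.612%) or the NFAT core (21.4%), and the windows of Spry1, Dusp6, Dusp10, Spry2 and Spred1 held none of the motifs. A match is a description of these letters and not a bound site.

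Each immunized group was first compared with the untreated controls, to ask how the feedback genes differed in the sorted responding cells. A rise or fall against control below is such a difference. The answer changed with time: of the 4 groups of 4 h and 12 h, Dusp4, Dusp5, Spry1 and Spred1 were called higher and Dusp10 lower in all 4, Dusp2 was called higher in 3, and by 24 h Dusp4 alone was called. A gene was called when its adjusted p (DESeq2, Benjamini-Hochberg) was under 0.05 and its shrunken log2 fold change was beyond 1 in either direction. At 4 h after 0.8 μg, 9 of 10 members were called, against 40.7% of all genes tested, 7 higher (17.3% of all genes) and 2 lower (23.4%). At 4 h after 80 μg, 7 were called (43.5% of all genes), 6 higher (18.4%) and 1 lower (25.1%). The median log2 fold change of the 10 members was 2.32 and 2.21, and that of all genes tested was -0.13 and -0.15.

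At 12 h, 8 members were called after 0.8 μg (37.7% of all genes), 5 higher (17.2%) and 3 lower (20.5%), and 7 were called without the third library. After 80 μg at 12 h, 6 were called (37.9%), 4 higher (17.8%) and 2 lower (20.1%). At 24 h, 1 member was called at each dose, against 17.3% of all genes after 0.8 μg (11.5% higher) and 20.2% after 80 μg (12.3% higher). The 6 comparisons share the same 3 control mice.

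**Figure D1:**
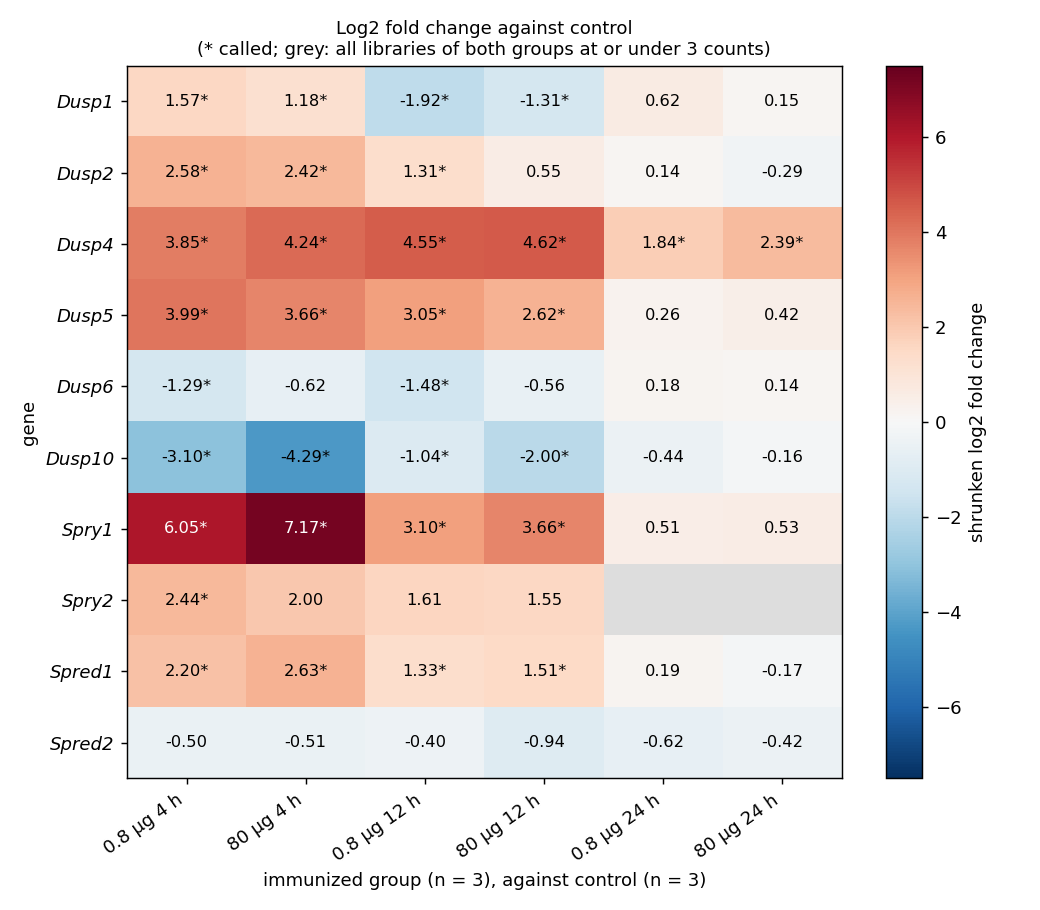
Shrunken log2 fold change (DESeq2) of each member in the 6 immunized groups against control, as color and number, n = 3 per group, with an asterisk where called. Dusp4, Dusp5, Spry1 and Spred1 were called higher in all 4 groups of 4 h and 12 h, Dusp10 was called lower in all 4, and Dusp1 was called higher at 4 h and lower at 12 h; the values of Dusp4 and Spry2 rest on 2 control counts each.

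Dusp5 (ENSMUSG00000034765, chr19:53529109-53542431) encodes a nuclear phosphatase that is specific for ERK. Its normalized counts (counts divided by the DESeq2 size factor) were 111, 109 and 117 in the 3 controls, 1813, 1740 and 1874 at 4 h after 0.8 μg, and 1412, 1395 and 1500 at 4 h after 80 μg. The 3 mice of each group lay close together, and no 4 h mouse came near a control. At 12 h they were 894, 996 and 917 after 0.8 μg and 525, 732 and 833 after 80 μg, and at 24 h 138, 119 and 148 after 0.8 μg and 152, 144 and 155 after 80 μg. The order of the group means was thus 0.8 μg 4 h, 80 μg 4 h, 0.8 μg 12 h, 80 μg 12 h, 80 μg 24 h, 0.8 μg 24 h and control, and of these neighbors only those of 24 h overlapped. Against control, Dusp5 rose by a log2 fold change of 3.99 ± 0.14 (SE, adjusted p = 6.65e-170) at 4 h after 0.8 μg and by 3.66 ± 0.14 (adjusted p = 7.06e-143) after 80 μg. At 12 h the log2 fold changes were 3.05 ± 0.14 (3.06 without the third library) and 2.62 ± 0.14, and at 24 h they were 0.26 (adjusted p = 0.186) and 0.42 (adjusted p = 0.0172), neither of which reached the fold threshold. Exons of the antisense gene AC137853.2 overlap those of Dusp5, and the strand setting of the counting was not given in the sources used here; that gene was not analysed here.

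Dusp2 (ENSMUSG00000027368, chr2:127336159-127338376) encodes a nuclear phosphatase of activated lymphocytes, formerly named PAC-1. Its normalized counts were 408, 357 and 348 in controls, 1658, 3079 and 2073 at 4 h after 0.8 μg and 2464, 1542 and 2096 at 4 h after 80 μg. The spread was wide at 4 h and the dose groups overlapped, but all 6 mice were above every control. At 12 h the values were 979, 1117 and 696 after 0.8 μg and 617, 533 and 496 after 80 μg, and the dose groups no longer overlapped. At 24 h they were 468, 330.1 and 428 after 0.8 μg and 264, 289 and 351 after 80 μg, which overlapped the controls. Dusp2 rose at 4 h by 2.58 ± 0.23 after 0.8 μg (adjusted p = 7.3e-28) and by 2.42 ± 0.23 after 80 μg (adjusted p = 9.17e-25), and at 12 h by 1.31 ± 0.23 after 0.8 μg (adjusted p = 6.99e-08, 1.48 without the third library). After 80 μg at 12 h the log2 fold change was 0.55 ± 0.23 (adjusted p = 0.0337), under the fold threshold.

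Dusp1 (ENSMUSG00000024190, chr17:26505590-26562128), whose product MKP-1 is an immediate early phosphatase of p38, JNK and ERK, moved in both directions. Its normalized counts were 27.8, 23.3 and 30.0 in controls, 67.6, 109 and 70.1 at 4 h after 0.8 μg and 82.2, 42.6 and 62.6 at 4 h after 80 μg. At 12 h they were 3.92, 9.03 and 5.87 after 0.8 μg and 14.6, 9.54 and 6.80 after 80 μg. All 4 h mice thus lay above the controls and all 12 h mice below them. At 24 h the values were 46.7, 32.6 and 46.5 after 0.8 μg and 34.0, 28.7 and 27.7 after 80 μg, the latter overlapping the controls. Dusp1 rose at 4 h by 1.57 ± 0.34 after 0.8 μg (adjusted p = 1.39e-05) and by 1.18 ± 0.34 after 80 μg (adjusted p = 0.00134), where leaving out the first 80 μg library or thinning to the smallest library brought the value to 0.95 and 0.98, under the fold threshold. It fell at 12 h, with log2 fold changes of -1.92 ± 0.43 after 0.8 μg (adjusted p = 2.97e-05, -1.82 without the third library) and -1.31 ± 0.39 after 80 μg (adjusted p = 0.00211). Exons of Ergic1 on the opposite strand overlap the annotated Dusp1 model. Ergic1 had 39.6 to 59.96 normalized counts in controls, 135 to 185 at 4 h and 231 to 371 at 12 h. At 24 h it had 134 to 152 after 0.8 μg and 64.7 to 92.4 after 80 μg. Both genes were above control at 4 h, and at 12 h Ergic1 was highest and Dusp1 lowest. The part of Ergic1 reads in the Dusp1 counts was not tested.

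Dusp4 (ENSMUSG00000031530, chr8:34807297-34819894) encodes MKP-2, an inducible nuclear phosphatase. It was almost uncounted in controls, with 0, 2 and 0 raw counts. Normalized counts were 25.2, 27.7 and 27.0 at 4 h after 0.8 μg, 42.8, 35.8 and 27.4 at 4 h after 80 μg, 49.99, 58.7 and 22.3 at 12 h after 0.8 μg and 58.5, 52.8 and 28.2 at 12 h after 80 μg. Unlike Dusp1, Dusp2 and Dusp5, its highest group means were at 12 h, although the 4 h and 12 h groups overlapped and neither difference was called (adjusted p = 0.236 at 0.8 μg, 0.088 without the third 12 h library, and 0.524 at 80 μg). At 24 h the values were 5.84, 8.39 and 3.10 after 0.8 μg and 2.19, 7.36 and 16.0 after 80 μg. These lay above the controls, except that the lowest 80 μg library and the highest control held the same 2 raw counts. As ratios of summed counts with an exact 95% interval, which covers counting error only, Dusp4 was 35.2 times the control level at 4 h after 0.8 μg (9.4 to 297), 46.0 times after 80 μg (12.4 to 385), and 61.4 (16.7 to 512) and 62.9 times (17.1 to 523) at 12 h. The fitted log2 fold change at 12 h after 0.8 μg was 4.55, and 4.83 without the third library. At 24 h the ratios were 7.79 (1.87 to 69.3) and 13 (3.35 to 111), with adjusted p = 0.0328 and 0.00586. The 24 h call at 0.8 μg was lost without the first or the third control or the second 0.8 μg library (adjusted p = 0.122, 0.0891 and 0.0984) or with only the 2 groups compared in the fit (adjusted p = 0.126), and that at 80 μg without the third 80 μg library (adjusted p = 0.0577).

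Dusp10 (ENSMUSG00000039384, chr1:184013302-184075636), which encodes MKP-5, a phosphatase of JNK and p38, was called lower than control at 4 h and 12 h at both doses. Its normalized counts were 71.1, 66.9 and 70.0 in controls, 5.05, 9.22 and 7.55 at 4 h after 0.8 μg and 2.32, 1.94 and 3.43 at 4 h after 80 μg, the last from 2 to 4 raw counts a library. At 12 h they were 39.2, 43.6 and 14.1 after 0.8 μg and 19.2, 13.2 and 17.5 after 80 μg. No mouse at 4 h or 12 h reached the lowest control. At 24 h they were 50.6, 43.8 and 57.8 after 0.8 μg and 39.5, 70.7 and 74.0 after 80 μg, and the 0.8 μg mice were still all below the controls (log2 fold change -0.44, adjusted p = 0.344). Dusp10 fell at 4 h, with log2 fold changes of -3.10 ± 0.44 after 0.8 μg (adjusted p = 2.23e-11) and -4.29 ± 0.51 after 80 μg (adjusted p = 6.65e-14), and at 12 h after 80 μg with -2.0 ± 0.37 (adjusted p = 3.97e-07). At 12 h after 0.8 μg it was called at -1.04 ± 0.35 (adjusted p = 0.00777), and the call was lost without the third library of that group (-0.73, adjusted p = 0.0692), without the first control (-1.0) or with only the 2 groups compared in the fit (-0.98).

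Dusp6 (ENSMUSG00000019960, chr10:99263231-99267489) encodes MKP-3, the cytoplasmic phosphatase of ERK. Its normalized counts were 41.2, 58.8 and 61.4 in controls, 20.2, 19.8 and 22.7 at 4 h after 0.8 μg, and 30.4, 18.8 and 4.70 at 12 h after 0.8 μg. After 80 μg they were 52.1, 31.0 and 20.6 at 4 h and 38.4, 32.3 and 36.9 at 12 h. The 0.8 μg mice were all below the controls at both times, the first 80 μg mouse at 4 h was among them, and the 80 μg mice at 12 h were just below. Dusp6 fell after 0.8 μg, by 1.29 on the log2 scale at 4 h (SE 0.43, adjusted p = 0.00657) and by 1.48 at 12 h (SE 0.43, adjusted p = 0.00171), the latter a fall by 1.08 without the third library (adjusted p = 0.0256). After 80 μg the log2 fold changes were -0.62 (adjusted p = 0.2) and -0.56 (adjusted p = 0.261). At 24 h its mean was 61.3 ± 22.1 after 0.8 μg and 59.3 ± 29.4 after 80 μg (SD, n = 3), both overlapping the controls.

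Spry1 (ENSMUSG00000037211, chr3:37639947-37644598) encodes Sprouty1, which is induced by TCR signaling and restrains Ras and ERK activation. Its raw counts in the controls were 4, 0 and 1. Normalized to library size, they were 180, 240 and 160 at 4 h after 0.8 μg and 458, 466 and 352 at 4 h after 80 μg. The lowest 80 μg mouse was thus well above the highest 0.8 μg mouse. At 12 h they were 26.5, 30.1 and 14.1 after 0.8 μg and 40.2, 31.6 and 36.0 after 80 μg, and at 24 h 0.97, 0.93 and 8.26 after 0.8 μg and 0, 1.47 and 7.40 after 80 μg. The order was 80 μg 4 h, 0.8 μg 4 h, 80 μg 12 h and 0.8 μg 12 h, with no overlap between neighbors, and the 24 h groups overlapped each other and the controls. At 4 h Spry1 had the largest fitted values of the 10 members against control, with log2 fold changes of 6.05 ± 0.52 at 4 h after 0.8 μg (adjusted p = 7.06e-21) and 7.17 ± 0.52 after 80 μg (adjusted p = 1.91e-28). At 12 h they were 3.10 ± 0.54 (adjusted p = 9.52e-07, 3.33 without the third library) and 3.66 ± 0.53 (adjusted p = 7.72e-09), below the 4.55 and 4.62 of Dusp4. The 4 h values correspond to ratios of summed counts of 101 (exact 95% interval 42.9 to 312) and 223 (95.4 to 689), set by only 5 control counts. Exons of Gm42922 overlap Spry1 on the opposite strand, and Gm42922 had 3 to 9 raw counts per library at 4 h and 0 to 3 in all others.

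Spred1 (ENSMUSG00000027351, chr2:117121374-117182279), which encodes an inhibitor of Ras that acts with neurofibromin, was called higher at 4 h and 12 h at both doses. Its normalized counts were 48.5, 32.5 and 31.4 in controls, 184, 219 and 136 at 4 h after 0.8 μg and 274, 199 and 252 at 4 h after 80 μg. At 12 h they were 104, 114 and 69.3 after 0.8 μg and 129, 85.1 and 117 after 80 μg, all above the controls, and at 24 h both dose groups overlapped the controls. Spred1 rose at 4 h by 2.20 ± 0.27 (adjusted p = 2.7e-15) and 2.63 ± 0.27 (adjusted p = 9.11e-22) after 0.8 μg and 80 μg, and at 12 h by 1.33 ± 0.27 (adjusted p = 5e-06, 1.5 without the third library) and 1.51 ± 0.27 (adjusted p = 1.25e-07).

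Spry2 (ENSMUSG00000022114, chr14:105891947-105896819) and Spred2 (ENSMUSG00000045671, chr11:19924375-20024026), the other Sprouty and Spred members, were low. Spry2 had 2, 0 and 0 raw counts in controls, 14, 10 and 3 at 4 h after 0.8 μg, 5, 9 and 7 at 4 h after 80 μg, 1, 17 and 0 at 12 h after 0.8 μg, 10, 6 and 0 at 12 h after 80 μg, and at most 1 in any 24 h library. Counts were thus seen in all 6 mice at 4 h and in some at 12 h. The ratio to control at 4 h was 13.4 after 0.8 μg (exact 95% interval 3.37 to 116, adjusted p = 0.0366), a call that was lost without any of the second or the third control or the first or second 0.8 μg library (adjusted p = 0.0925 to 0.111), and 9.11 after 80 μg (2.23 to 80.1, adjusted p = 0.0792), where a call was gained by edgeR (adjusted p = 0.0477), with a replicate block (adjusted p = 0.0454) and without the first control (adjusted p = 0.0275). Spred2 had a mean of 25.5 ± 9.06 normalized counts in controls and 12.6 to 18.7 in the immunized groups (n = 3 each), was called in none of the 13 comparisons, and had unadjusted p values against control from 0.0631 to 0.424. Leaving out the first library of the 0.8 μg 4 h or of the 80 μg 12 h group brought Spred2 to -1.28 (adjusted p = 0.0439) and -1.36 (adjusted p = 0.0324), each a call.

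**Figure D2:**
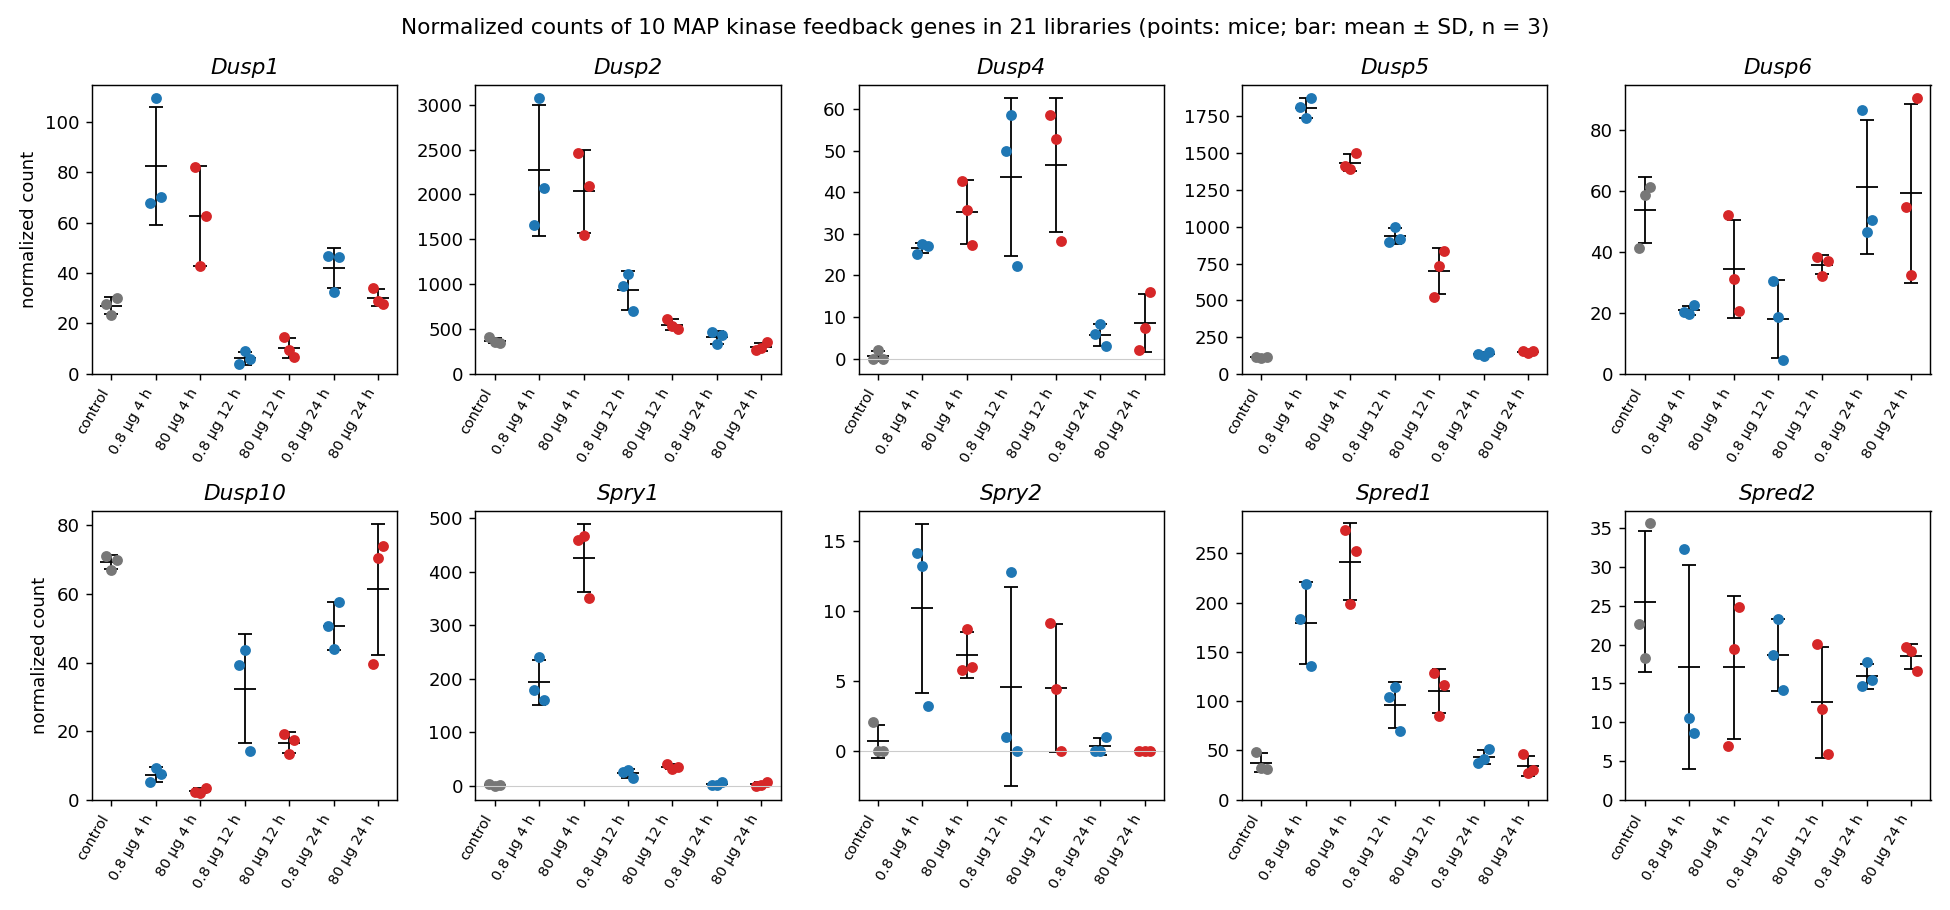
Normalized counts of each member (vertical axis, linear, one scale per gene) in the 21 libraries, with points for mice (grey control, blue 0.8 μg, red 80 μg) and bars for the mean ± SD of 3. Spry1 at 4 h is the one dose difference that was called, with the 80 μg mice at 352 to 466 and the 0.8 μg mice at 160 to 240.

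The second question was whether the amount of antigen, 80 μg against 0.8 μg, changed these genes at matched times. Spry1 at 4 h alone was called, and the other members differed by less than the fold threshold or did not pass the adjusted p. At 4 h, 1 of 10 members was called (5.85% of all genes tested), and it was higher (3.12%). At 12 h 0 were called (2.79% of all genes), with 4 at an unadjusted p under 0.05 and 0 by edgeR, and at 24 h 0 were called (1.56%), with 0 at an unadjusted p under 0.05 and 0 by edgeR. The median log2 fold change of the 10 members was -0.09, 0.01 and -0.01 at the 3 times, and that of all genes was -0.02, 0.01 and 0.02.

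Spry1 was 425 ± 64.0 after 80 μg and 193 ± 41.7 after 0.8 μg at 4 h (SD, n = 3), a log2 fold change of 1.13 ± 0.26 (DESeq2 adjusted p = 0.000225). Leaving out any one of the 6 libraries gave 1.01 to 1.33 (adjusted p = 0.000135 to 0.0153). A block on the replicate numbers, whose meaning the labels do not give, ended the call in DESeq2 (1.04, adjusted p = 0.407) but not in edgeR (1.16, adjusted p = 0.000191). At 12 h it was 35.9 ± 4.32 against 23.6 ± 8.39, with no overlap, a difference of 0.56 ± 0.32 that did not pass (adjusted p = 0.385) and was 0.33 without the third 0.8 μg library (adjusted p = 0.678). At 24 h the means were 2.96 and 3.39.

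Dusp5 went the other way, with 1435 ± 56.2 against 1809 ± 67.2 at 4 h and 697 ± 157 against 936 ± 53.4 at 12 h. The dose groups did not overlap at either time, and the 80 μg mice were the lower ones. The log2 differences were -0.33 ± 0.12 (adjusted p = 0.0416) and -0.43 ± 0.12 (adjusted p = 0.0104, -0.44 without the third 0.8 μg library), which passed the adjusted p but not the fold threshold. At 24 h the difference was 0.16 ± 0.15 (adjusted p = 0.662). Dusp2 was likewise lower after 80 μg at 12 h, 548 ± 62.0 against 931 ± 215, a log2 difference of -0.75 ± 0.23 (adjusted p = 0.0209) that remained under the fold threshold and was -0.92 without the third 0.8 μg library (adjusted p = 0.00423).

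Dusp10 had 2.56 ± 0.78 normalized counts at 4 h after 80 μg and 7.27 ± 2.10 after 0.8 μg, with no overlap, and a log2 difference of -1.19 ± 0.57 (adjusted p = 0.181). At 12 h it had 16.6 ± 3.08 against 32.3 ± 15.9, a difference of -0.96 ± 0.38 (adjusted p = 0.133), and without the third 0.8 μg library, which lay within the 80 μg values, the difference was -1.28 and was called (adjusted p = 0.0138). Dusp6 did not overlap between doses at 12 h, 35.9 ± 3.18 against 17.96 ± 12.9, with 0.92 ± 0.43 (adjusted p = 0.239), and 0.52 without that library (adjusted p = 0.577).

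For the members with no call, the 95% intervals of the unshrunken log2 difference show what these data leave possible. Those of Dusp2 at 4 h (-0.61 to 0.29), Dusp5 at 24 h (-0.13 to 0.45) and Spred1 at 4 h (-0.04 to 0.90), 12 h (-0.31 to 0.68) and 24 h (-0.93 to 0.20) lay within 1 in either direction. Those of Dusp1 at 12 h (-0.29 to 1.64), Dusp4 at 24 h (-0.55 to 1.82), Spry1 at 24 h (-1.18 to 1.37) and Spred2 at 4 h (-1.08 to 1.06) reached beyond a log2 difference of 1, so that these data leave a difference of that size possible. Without the third 0.8 μg library, the shrunken 12 h differences of Dusp1 and Spred1 were 0.51 and 0.01. Spry2 had no adjusted p in the dose comparisons.

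**Figure D3:**
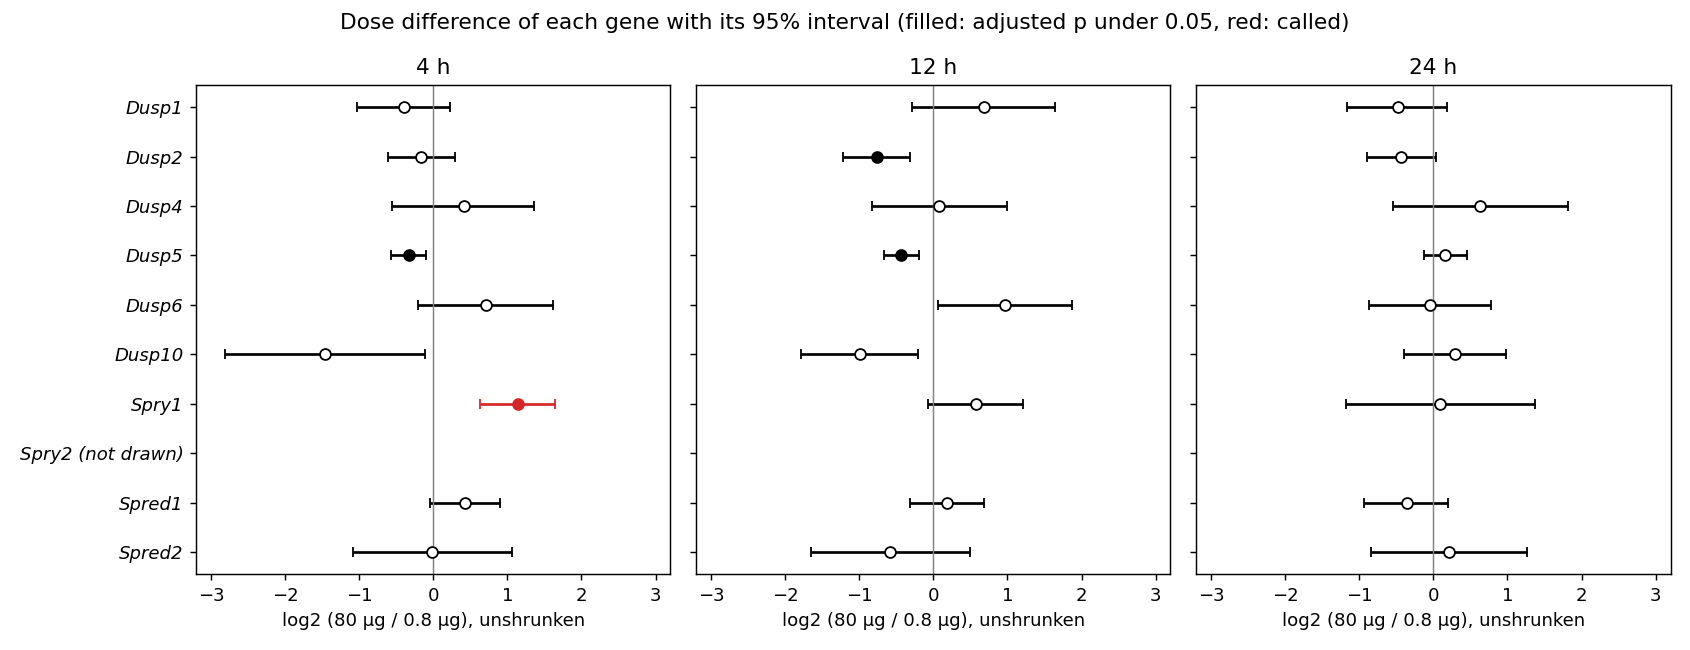
Unshrunken log2 ratio of 80 μg to 0.8 μg (horizontal axis) with its 95% interval for each member at 4 h, 12 h and 24 h, n = 3 per group, filled where the adjusted p was under 0.05 and red where called. Spry1 at 4 h (1.14, interval 0.63 to 1.65) is the red point, and Dusp5 at 4 h and 12 h and Dusp2 at 12 h are filled below 0.

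Whether the dose difference itself changed with time was tested with a likelihood ratio test of the dose by time terms in the 18 immunized libraries. By DESeq2, 0 of the 9 members with an adjusted p passed 0.05, against 10.3% of all genes tested, 2 had an unadjusted p under 0.05 (Dusp5 at 0.00651, adjusted 0.0583, and Dusp10 at 0.0255, adjusted 0.153), and edgeR likewise gave 0. Without the second replicates Dusp2 passed (adjusted p = 0.0165), and without the third Dusp5 passed (adjusted p = 0.0389). The calls of Spry1 at 4 h and not at 12 h or 24 h therefore do not show that its dose difference varied with time (adjusted p = 0.464).

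The course within each dose was the third comparison, in which the sorting gate changes along with time. From 4 h to 12 h after 0.8 μg, 4 of 10 members were called (20.5% of all genes), 1 higher (12.6%) and 3 lower (7.98%), also 4 without the third 12 h library. After 80 μg, 6 were called (24.8%), 1 higher (15.7%) and 5 lower (9.1%). From 12 h to 24 h, 7 were called after 0.8 μg (26.6%), 2 higher (17.1%) and 5 lower (9.48%), or 8 without the third 12 h library, where Spry2 was added (adjusted p = 0.0326), as it was by edgeR, with the stricter filter and without the first 12 h library (adjusted p = 0.0486, 0.042 and 0.0484), and 7 after 80 μg (27.2%), 2 higher (16.7%) and 5 lower (10.5%).

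Spry1 and Dusp1 had the steepest early falls of the members. The 4 h to 12 h log2 fold changes of Spry1 were -2.95 ± 0.30 after 0.8 μg (adjusted p = 4.8e-21, -2.73 without the third 12 h library) and -3.52 ± 0.28 after 80 μg (adjusted p = 1.69e-34). Those of Dusp1 were -3.48 ± 0.41 (adjusted p = 2.64e-15, -3.39 without that library) and -2.49 ± 0.37 (adjusted p = 3.61e-10), and Dusp1 then rose again to 24 h by 2.54 ± 0.41 (2.44 without that library) and 1.46 ± 0.38. Dusp2 fell over the same interval, with -1.27 ± 0.23 (-0.99 without the second 0.8 μg 4 h library, -1.1 without the third 12 h library) and -1.87 ± 0.23, and Dusp5 had -0.95 ± 0.12 (-0.94 without the third 12 h library), under the fold threshold, and -1.04 ± 0.12, or -0.88 without the first 80 μg 12 h library.

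On the log2 scale, the larger fall of Dusp5 between immunized times came later, from 12 h to 24 h. Its log2 fold changes were -2.78 ± 0.14 after 0.8 μg (adjusted p = 7.95e-90, -2.79 without the third 12 h library) and -2.20 ± 0.13 after 80 μg (adjusted p = 2.12e-60). Dusp4 also fell in this interval, with -2.70 ± 0.51 (adjusted p = 1.48e-06, -2.98 without that library) and -2.23 ± 0.48 (adjusted p = 1.8e-05). From 4 h to 12 h Spred1 had -0.88 ± 0.25 after 0.8 μg, which was -0.71 without the third 12 h library and -1.03 and called without the third 4 h or the second 12 h library. After 80 μg it had -1.12 ± 0.24, or -0.97 without the second 12 h library. From 12 h to 24 h it had -1.14 ± 0.27 after 0.8 μg, with -0.99 without the second 12 h library, -0.9 after thinning and -1.32 without the third 12 h library, and -1.68 ± 0.26 after 80 μg.

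Dusp10 and Dusp6 returned upward. Dusp10 rose from 4 h to 12 h by 2.06 ± 0.44 after 0.8 μg (adjusted p = 3.35e-05, 2.39 without the third 12 h library) and 2.29 ± 0.53 after 80 μg (adjusted p = 0.000125), and from 12 h to 24 h by 1.84 ± 0.37 after 80 μg (adjusted p = 3.72e-06), while the later step after 0.8 μg was 0.61 ± 0.36 (adjusted p = 0.165), or 0.29 without that library. Dusp6 rose from 12 h to 24 h after 0.8 μg by 1.66 ± 0.43 (adjusted p = 0.000428), or 1.26 without the third 12 h library, and had 0.70 ± 0.41 after 80 μg (adjusted p = 0.158). Spry2 was called lower from 12 h to 24 h after 80 μg (adjusted p = 0.0114), from 16 counts over the 3 libraries to 0, a call lost without the first 12 h library (adjusted p = 0.0895) or with only the 2 groups compared in the fit (adjusted p = 0.26).

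**Figure D4:**
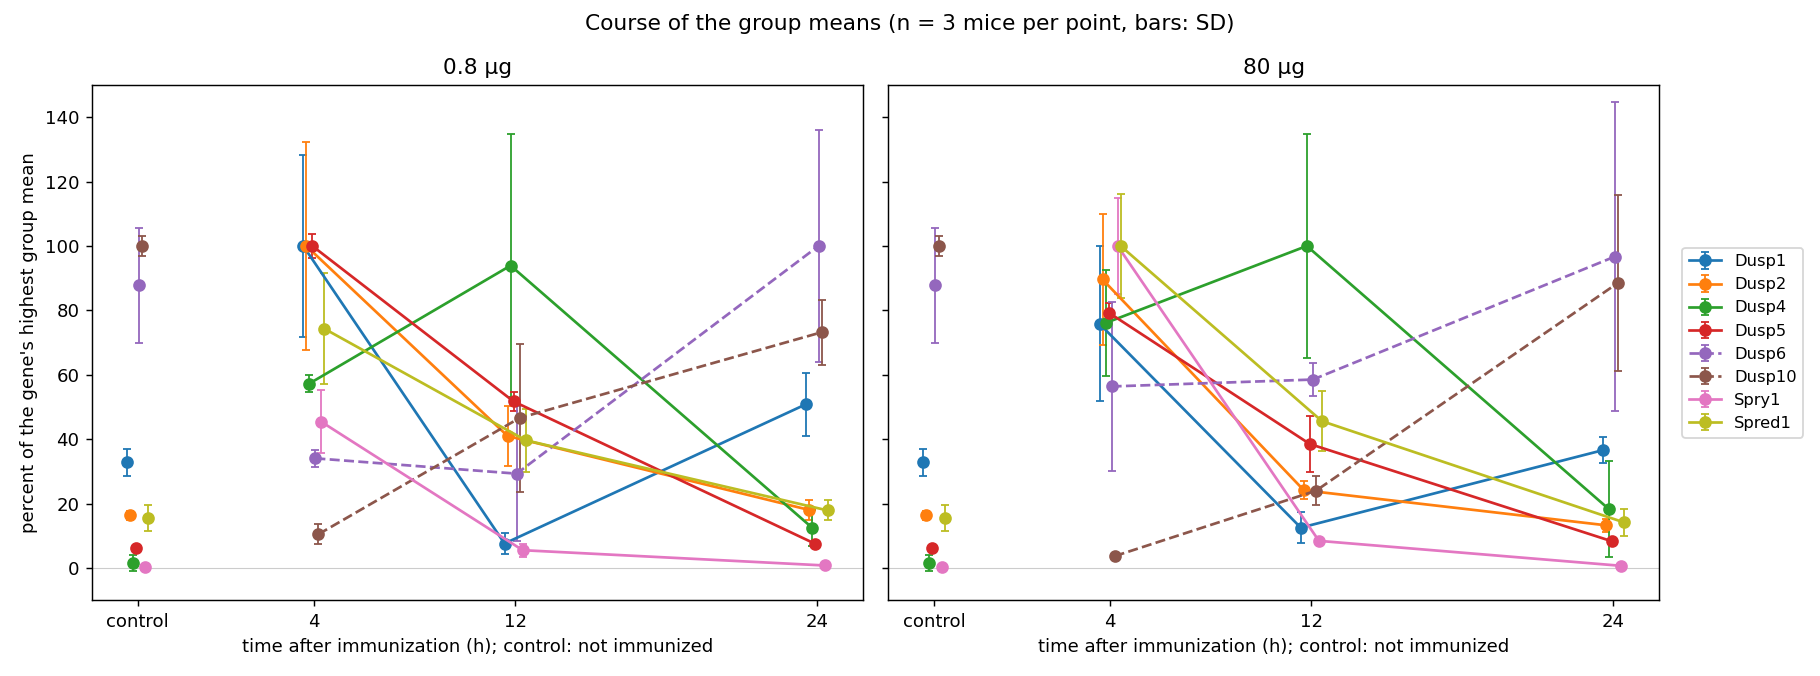
Group means ± SD (n = 3) of the 8 members with at least 20 normalized counts on average, as a percent of each gene's highest group mean, against time for 0.8 μg (left) and 80 μg (right), with the controls set apart at the left. Dusp1, Dusp2, Dusp5, Spry1 and Spred1 are highest at 4 h, Dusp4 at 12 h, and the means of Dusp6 and Dusp10 (dashed) lie below the control mean at 4 h and 12 h, where Dusp6 after 80 μg was not called.

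Among 15 further genes of these families or their partners, 11 were measured. Between doses, the 6 with an adjusted p by DESeq2 included 0 calls at 4 h, 12 h or 24 h (5.85%, 2.79% and 1.56% of all genes), and 1, 0 and 3 of the 11 had an unadjusted p under 0.05. Dusp16, a JNK phosphatase, had 47.9 ± 4.50 normalized counts after 80 μg and 19.6 ± 7.45 after 0.8 μg at 4 h (SD, n = 3), with no overlap and a log2 difference of 1.25 ± 0.46 that just missed the threshold (adjusted p = 0.0554). At 24 h its groups were apart in the opposite direction, 2.33 ± 1.31 against 7.82 ± 0.83, with -1.40 ± 0.59 (adjusted p = 0.165). Against control, 8 of the 11 had an adjusted p, and at 4 h 3 were called higher and 3 lower at each dose, beside 17.3% and 23.4% of all genes after 0.8 μg and 18.4% and 25.1% after 80 μg. Nf1, the Ras GTPase activating protein that works with Spred proteins, rose by 1.11 ± 0.38 after 0.8 μg (adjusted p = 0.00734, with 0.9 after thinning and 0.81 without the first 0.8 μg library, adjusted p = 0.0937) and 1.48 ± 0.37 after 80 μg (adjusted p = 0.000174). Dusp16 had log2 fold changes of 1.30 ± 0.52 (adjusted p = 0.0274, 0.0671 to 0.126 without the first or the third control or the second or the third 0.8 μg library, and 0.0643 with only the 2 groups compared) and 2.55 ± 0.50 (adjusted p = 2.61e-06), and Spred3 was called from means of 3.27 and 6.68 normalized counts against 0 in every control, the first of these calls lost without any of the controls or the first or the third 0.8 μg library (adjusted p = 0.059 to 0.225), with a replicate block (adjusted p = 0.0767) or after thinning (adjusted p = 0.0789).

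The 3 that fell at 4 h were Dusp19, from 25.7 in controls to 2.09 and 2.59 normalized counts (log2 fold changes -3.17 ± 0.58 and -2.90 ± 0.54), Lztr1, an adaptor for the degradation of Ras proteins (-1.41 ± 0.26 and -1.58 ± 0.26), and Dusp7, a cytoplasmic ERK phosphatase like Dusp6 (-1.22 ± 0.22 and -1.13 ± 0.21, the latter at the threshold of -1.0 without the third control). At 12 h Dusp22 and Nf1 were called higher at each dose (17.2% and 17.8% of all genes), Dusp22 by 1.43 ± 0.43 and 1.18 ± 0.44 and Nf1 by 1.14 ± 0.37 and 1.13 ± 0.37, where the 0.8 μg values were 1.64 and 1.07 without the third library. The 80 μg call of Dusp22 was lost without the third control or the second or the third 80 μg library (adjusted p = 0.0622 to 0.0717), and that of Nf1 without the first or second 80 μg library (0.97 and 0.93). At 24 h none of the 11 was called at either dose (17.3% and 20.2% of all genes), with 3 at an unadjusted p under 0.05 at each.

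The cascades that the members restrain were compared between doses in the same way, where 5.85%, 2.79% and 1.56% of all genes tested were called at 4 h, 12 h and 24 h. Of 21 genes from Ras to ERK, 0 were called higher (3.12% of all genes) and 2 lower (2.74%) at 4 h, Rasgrp1 (-1.98 ± 0.15) and Rasgrp2 (-1.24 ± 0.30), exchange factors that activate Ras (Rasgrp1) and mainly its relative Rap1 (Rasgrp2); the Rasgrp2 groups overlapped, and its value was -0.98 or -0.89 without the second or the third 80 μg library, and -0.87 and not called with only the 2 groups compared in the fit (adjusted p = 0.119). At 12 h 0 of 21 were called, with 6 at an unadjusted p under 0.05. Rasgrp1 was still lower after 80 μg at 12 h, with no overlap, at -0.78 ± 0.15 (DESeq2 adjusted p = 1.05e-05), under the fold threshold. At 24 h Rasa3, a Ras GTPase activating protein, was called higher (1.23 ± 0.20, beside 0.89% of all genes). Rasgrp2 was also higher after 80 μg at 24 h, opposite to 4 h, with no overlap. Its log2 difference was 0.93 ± 0.14 (adjusted p = 2.62e-09), under the fold threshold. Of 17 measured JNK and p38 cascade genes, Map2k3, a kinase of p38, was called higher at 4 h (1.14 ± 0.16) and Mapk11, p38 beta, lower (-1.12 ± 0.24). Mapk11 was -0.93 without the third 80 μg library and -0.99 with a replicate block on only the 2 groups, both under the fold threshold. In this list 0 were called at 12 h or 24 h (2 and 3 at an unadjusted p under 0.05).

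Of 22 growth factor and ERK responsive genes, 17 of which had an adjusted p, 5 were called higher and 2 lower at 4 h, against 3.12% and 2.74% of all genes. They included Fosl2 (1.75 ± 0.37), Elk1 (1.28 ± 0.29) and Junb (1.07 ± 0.16, or 0.99 without the third 0.8 μg library) among the higher and Egr1 (-1.62 ± 0.23) and Elk3 (-1.62 ± 0.36, or -1 and not called with a replicate block on only the 2 groups, adjusted p = 0.0851) among the lower, all transcription factors. At 12 h 1 was called higher, Egr2 (1.63 ± 0.35), and 1 lower, Egr1 (-1.51 ± 0.25), or 1.43 and -1.15 without the third 0.8 μg library, and at 24 h 2 were lower, Egr1 (-1.22 ± 0.24) and Egr2 (-2.03 ± 0.48). The 24 h call of Egr2 was lost with only the 2 groups compared in the fit (-0.72, adjusted p = 0.0637) and with a replicate block on them (-0.5, adjusted p = 0.269), a block under which its 12 h value was 0.96. The median log2 difference of this list was 0.22, 0.08 and -0.18 at the 3 times, and that of the Ras to ERK list -0.08, -0.03 and -0.02.

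The genes most like each member, except Spry2 and Spred2, were sought by Pearson correlation of the 7 group means of the deposited log2 values. The search covered 8745 genes with at least 20 normalized counts and is a description over 7 points that share libraries. Spry2 and Spred2 averaged 3.88 and 17.92 normalized counts. For Dusp2 they were Tnfsf14 (0.995) and Nr4a3 (0.991), the gene whose promoter drives the Timer reporter used for sorting. For Dusp5 they were Utp14a and Cdv3 (both 0.998), for Dusp4 Tmem238 and Gfpt1 (both 0.998), and for Dusp1 Rnf10 (0.991) and Insig1 (0.987). For Spry1 they were Ube2q2 (0.994) and Mafk (0.993), for Spred1 Sco2 (0.999) and Mtdh (0.997), for Dusp10 Sh2d3c (0.996) and Pbrm1 (0.995), and for Dusp6, with the lowest values, Zfp53 (0.965) and Gxylt1 (0.960).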

How the data were processed

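RNA from sorted CD4+ T cells of 21 mice was measured by 3′ mRNA sequencing (QuantSeq forward kit). Per the methods and the submitters' processing notes, the authors trimmed the reads, aligned them with STAR 2.5.2a to GRCm38 (mm10), counted them per Ensembl gene with HTSeq and deposited the raw counts. The deposited log2 values are the authors' regularized log (rlog) values from DESeq2 after removing genes with few reads, and were used here only for genes of like pattern. Strand setting, annotation release and molecular identifiers were not given in the sources used here. A DESeq2 (1.42.0, R 4.3.3) model was fitted to the counts of all 21 libraries, with 1 coefficient per group, genes with at least 10 counts, log2 fold changes shrunk with the normal prior, and a call at an adjusted p under 0.05 and an absolute log2 fold change above 1. The interaction was a likelihood ratio test in the 18 immunized libraries. Figures were drawn with matplotlib 3.10.9. The scripts were tested on simulated data.

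Replicates were separate mice, and p-values measure the spread between these mice. Intervals of count ratios, and the floor, reflect counting error alone. Gene models are GENCODE vM21 on GRCm38, and promoter windows are RefSeq on GRCm38.p6. The members and lists were chosen with earlier results of these data known. All 10 members are named. Of each other list, up to 3 genes per direction and dose comparison with at least 20 normalized counts on average are named. Also named are family genes called against control and 2 genes of most similar pattern per member, except for Spry2 and Spred2. Alternatives were TMM scaling, edgeR 4.0.16, no filter or a stricter one (at least 10 counts in at least 3 libraries), a replicate block, thinning to the smallest library, only the groups compared, unshrunken fold changes, the adjusted p alone, and leaving out each library.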

Additional observations from a re-analysis of the deposited data

Results flagged for a closer look

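The dose difference varied with time in 8 of the 11 named genes of the surrounding cascades, by the interaction test (DESeq2), which 10.3% of all genes tested passed. For Rasgrp1 the adjusted p was 1.17e-15, for Egr2 2.52e-08, for Junb 1.28e-07, for Rasgrp2 1.65e-07, for Map2k3 1.05e-06, for Elk3 4.51e-05, for Rasa3 7.37e-05 and for Elk1 0.0236. The log2 difference of Egr2 between 80 μg and 0.8 μg was 1.00 at 4 h, 1.63 at 12 h and -2.03 at 24 h, and the last was -0.72 (adjusted p = 0.0637) with only the 2 groups compared in the fit. These genes were named because they were called at 1 time or more, so that the count is not independent of that choice. Of the 7 other family genes called against control, Dusp16 alone passed this test (adjusted p = 0.0178), with dose groups that did not overlap and lay in opposite directions at 4 h and 24 h, and Spred3 had no adjusted p. No member passed this test, and no member had dose groups apart in opposite directions at different times. Single outlying mice were not tested for in these groups of 3.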

How the results depend on the processing

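Of 1963 member values under the alternatives, 1877 kept their direction and side of the threshold, 22 lost and 20 gained a call, and 44, in 18 of 127 results and called in neither fit, changed sign. These totals include the unshrunken fold changes and the adjusted p alone, which reuse the main fit. The adjusted p alone could gain a call but not lose one or change a sign, and part of the gained calls came from it. The 30 results of other named genes gave 475 values, these settings included, of which 444 kept their call and 31 lost it. By the adjusted p alone, 2 members passed between doses at 4 h and 2 at 12 h. Against control after 80 μg, 7 passed at 12 h and 2 at 24 h. Within doses, 6 passed from 4 h to 12 h after 0.8 μg and 8 from 12 h to 24 h after 80 μg. The shares of all genes given above are for both thresholds together and do not apply to these counts. Leaving out 1 library gave 0 to 1 members called between doses at 12 h and at 24 h against control at either dose, and leaving out 1 replicate number gave 0 to 1 with an interaction. Fitting only the groups compared gave 0 after 0.8 μg at 24 h against control.

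Replicate numbers did not pair the mice: deviations of same-numbered libraries correlated at -0.17 to 0.211, over 0.1 in 9 of 39 pairs, and in 1 of 13 comparisons every sample correlated best with its own number. With a replicate block the count between doses at 4 h was 0, since Spry1 had 1.04 (adjusted p = 0.407), where its DESeq2 dispersion was 0.361 in place of 0.0445. Chosen after seeing the data, the block in edgeR gave Spry1 1.16 (adjusted p = 0.000191) and the block on only the 2 groups compared gave 1.11 (adjusted p = 6.4e-09), and edgeR without a block gave 1.16 (adjusted p = 0.000664).

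These values changed sign. Between doses at 4 h, Spred2 was 0.01 with TMM scaling, edgeR, the replicate block, only the 2 groups compared and both of these, 0.08 with the block in edgeR, and -0.34 to 0.77 without 1 library, and Dusp2 was -0.33 to 0.13. At 12 h, Spry2 was 0.05 after thinning and -0.76 to 1.75 without 1 library, and Dusp4 -0.18 to 0.38. At 24 h, Spry1 was -0.08 with the block, -0.20 after thinning, -0.02 with only the 2 groups compared, with or without the block, and -0.94 to 0.87 without 1 library, Dusp5 was -0.03 after thinning, Dusp6 was 0.02 with the block in edgeR and -0.49 to 0.29 without 1 library, and Dusp4 -0.12 to 0.92. Against control after 0.8 μg, leaving out 1 library gave Spry2 -0.04 to 2.01 at 12 h, and Spry1 -0.33 to 0.96 and Dusp6 -0.15 to 0.32 at 24 h. Against control after 80 μg at 24 h, Spred1 was 0.11 after thinning and -0.39 to 0.05 without 1 library, Spry1 -0.43 to 0.92, Dusp10 -0.33 to 0.04 and Dusp6 -0.31 to 0.42. From 4 h to 12 h without 1 library, Spred2 was -0.19 to 0.88 and Dusp6 -0.67 to 0.22 after 0.8 μg, and Dusp6 -0.20 to 0.44 after 80 μg. The cause was not tested. Few counts limit Spry2 and the control levels of Dusp4 and Spry1.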
